A study of Mus musculus with 4 samples.

Results

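The effect of a tumor on the exercised heart was read from 2 heart libraries of CDF1 mice, the E(+)T(+) library of runners that had received colorectal carcinoma cells and the E(+)T(-) library of runners that had not. Of the 23282 genes listed, 12057 were kept because their normalized read count reached 16 in at least 1 of the 2 libraries. The normalized read count is 2 to the power of the deposited log2 value, less 1, and the difference of a gene is the deposited log2 value in E(+)T(+) minus that in E(+)T(-). At the limit, 95 kept genes had a highest count from 16 to under 17, and 107 genes that were not kept had one from 15 to under 16.

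The study asked how aerobic running at high intensity and a cancer change gene expression in mouse tissues. All mice were male CDF1. E stands for treadmill running and T for CT26, a murine colorectal carcinoma line injected through the tail vein, so that E(+)T(+) hearts had both, E(+)T(-) hearts had running alone, E(-)T(-) hearts had neither, and E(-)T(+) hearts had the cells without running. The labels give postnatal day 28 for each of the 4 hearts, which by the methods is the age at which the mice were bought, not the age at dissection. Each group has 1 heart library, and no pooling of animals is mentioned. The study describes 1 representative mouse per group for leg muscle and treats the heart in a similar way, without giving the number of hearts. Whether mice without a tumor received a sham injection is not given in the sources used here. RNA was read by a 3′ messenger RNA method that gives 1 read per captured transcript end.

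A tumor can act on the heart from a distance through circulating cytokines. Interleukin-6 and related cytokines switch on acute phase genes through STAT3, metallothioneins answer to metals, cytokines and glucocorticoids, and neutrophils leave the marrow in large numbers. In cachexia, the wasting that goes with many tumors, heart muscle may lose mass through ubiquitin ligases, the proteasome and autophagy, and may change its fuel use and its contractile and fetal gene programs.

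With 1 library per group there is no replicate check, so no test was made and every difference compares 2 libraries, not 2 conditions. Reads were recovered from the deposited values, and each interval is a 95% exact Clopper-Pearson interval of the ratio of those reads between the 2 libraries, which covers counting error only. Where a gene had 0 reads in a library, the difference is given as at least its value against a floor of 3 reads. The 95% interval of such a gene starts somewhat lower. It starts at 8.06 for Ucp1, given below as at least 8.36, and at 6.43 for Cxcl2, given as at least 6.74. Values of a gene in 4 libraries are normalized read counts in the order E(+)T(+), E(+)T(-), E(-)T(-) and E(-)T(+).

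The libraries held from about 6595407 to about 11545980 recovered reads and from 15084 to 15632 genes with reads. All 22 cardiomyocyte markers were past the minimum, none differed 2-fold, and their summed counts of 744950, 655080, 654433 and 665556 lay close together on the deposited scale. As a share of all reads they made up 5.90% in E(+)T(+) against 8.54%, 8.66% and 7.92%, and their median difference of 0.23 became -0.49 when scaled to total reads. The E(+)T(+) library stood apart by globin, which took 37.3% of its reads against 8.40%, 8.76% and 7.86% in the others. The E(+)T(-) library stood apart by heat shock genes, among which Hspa1a reached 3482 normalized reads against 58.1, 81.7 and 29.8 in E(+)T(+), E(-)T(-) and E(-)T(+). On the deposited scale the median difference of all kept genes was -0.02, with quartiles of -0.46 and 0.40. Scaled to total reads instead, that median was -0.74, and scaled to reads outside the globin genes it was -0.19. Of the 32 gene lists described here, 17 had a median that changed sign under scaling to total reads, and for those the value on that scale is given beside the deposited one.

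On the deposited scale 1017 genes (8.43% of 12057) were at least 2-fold higher in E(+)T(+) than in E(+)T(-), and 1085 (9.0%) were at least 2-fold lower. The called members of each list below are to be read against these shares of all kept genes. At least 4-fold differences were more often upward, with 369 genes higher and 197 lower, and at 8-fold the numbers were 174 and 47. Scaled to total reads, 472 genes were at least 2-fold higher and 4050 lower, and scaled to reads outside globin genes 819 were higher and 1506 lower. Of the 1017 higher genes, E(+)T(+) was the highest of the 4 heart libraries for 668 (65.7%) and E(+)T(-) the lowest for 595 (58.5%). Of the 1085 lower genes, E(+)T(+) was the lowest of 4 for 733 (67.6%) and E(+)T(-) the highest for 663 (61.1%).

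**Figure D1:**
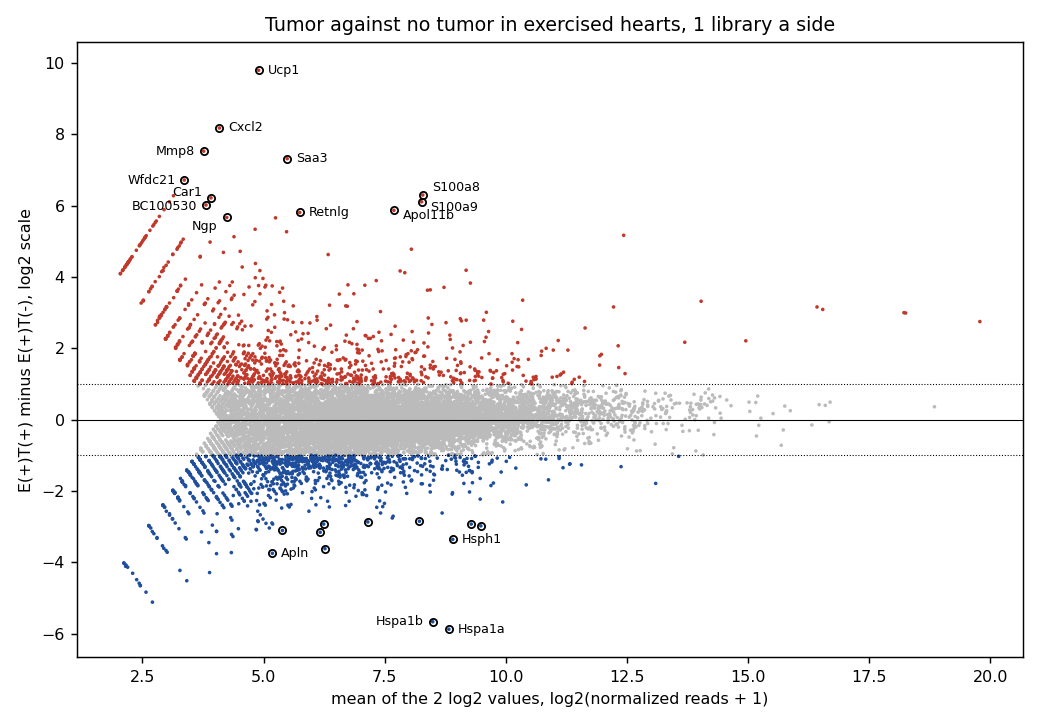
Difference between the E(+)T(+) and E(+)T(-) heart libraries (vertical axis, log2 scale) against the mean of both log2 values (horizontal axis) for the 12057 kept genes. Red points are the 1017 genes at least 2-fold higher, blue points the 1085 at least 2-fold lower, circles the 12 largest differences each way among genes that reached 100, and the dotted lines mark 2-fold; Ucp1 lies farthest up at 9.80 and Hspa1a farthest down at -5.88.

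The genes farthest up among those that reached 100 normalized reads were of brown fat, inflammation, neutrophils and red cells. Ucp1, the uncoupling protein of brown fat, had 889 normalized reads in E(+)T(+) and 0, 0.238 and 0 in the others, which puts it at least 8.36 higher on the log2 scale. Cxcl2, a neutrophil chemokine, stood at 289, 0, 4.85 and 11.2, at least 6.74 higher. Ucp1 and Cxcl2 were thus high in E(+)T(+) alone, with the sedentary tumor heart near the hearts without a tumor. Saa3, an acute phase serum amyloid, stood at 567, 2.55, 8.29 and 2593, a difference of 7.32 (interval 6.15 to 9.99). Both tumor hearts were high in Saa3, the sedentary one more so.

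Neutrophil genes made up much of the rest of the leading rises. Mmp8, the neutrophil collagenase, stood at 184, 0, 0.222 and 90.1, at least 6.09 higher. S100a8 (2773, 34.2, 46.1 and 1332) and S100a9 (2547, 36.0, 62.2 and 1477), which form the calprotectin of neutrophil cytoplasm, differed by 6.30 and 6.11. Retnlg, a resistin-like secreted protein, stood at 402, 6.16, 10.6 and 174, and Ngp, a neutrophil granule protein, at 134, 1.65, 1.38 and 54.7, with differences of 5.81 (4.93 to 7.31) and 5.67 (4.33 to 9.28). In each of these 5 genes both tumor hearts lay above both hearts without a tumor, and E(+)T(+) was the highest.

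Among the others, Wfdc21, of the whey acidic protein family, stood at 105, 0, 10.6 and 114, at least 5.27 higher, and BC100530, a gene of the stefin protease inhibitor family, at 112, 0.746, 1.39 and 165, a difference of 6.02 (4.45 to 12.28) that rests on 1 read in E(+)T(-). Car1, a carbonic anhydrase of red cells, stood at 129, 0.751, 0.206 and 25.5, a difference of 6.22 (4.66 to 12.48), also on 1 read. Apol11b, of the apolipoprotein L family, had the opposite order in the sedentary pair, with 1582, 26.0, 54.2 and 21.8. Its difference was 5.87 (5.39 to 6.50) in exercised hearts and -1.27 in sedentary ones.

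The genes farthest down included heat shock chaperones, Apln and collagen-related genes. Hspa1a and Hspa1b, the inducible Hsp70 genes, are near-identical copies between which reads may be shared, and they stood at 58.1, 3482, 81.7 and 29.8 and at 49.4, 2573, 81.7 and 16.5, with differences of -5.88 (-6.33 to -5.52) and -5.67 (-6.17 to -5.28). For both, E(+)T(+) lay beside the sedentary hearts and E(+)T(-) was the library that departed. Apln, the peptide ligand apelin made by endothelium, showed the other order, with 8.92, 132, 173 and 5.07 and a difference of -3.75 (-5.15 to -2.90). Both tumor hearts were low in it and both hearts without a tumor were high.

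Pdgfb, the growth factor by which endothelium recruits pericytes, stood at 13.3, 122, 127 and 65.2, a difference of -3.11 (-4.21 to -2.37), and Bcl6b, a transcriptional repressor, at 51.6, 384, 297 and 52.7, a difference of -2.87 (-3.37 to -2.46). Both were lower in each tumor heart than in each heart without a tumor. Mgl2, a lectin of dendritic cells and macrophages, stood at 23.1, 214, 76.9 and 22.7, a difference of -3.16 (-3.94 to -2.57). Rsrp1, an arginine- and serine-rich protein gene, stood at 225, 1727, 1286 and 377, a difference of -2.93 (-3.15 to -2.73), whereas 1500015O10Rik, known as the secreted peptide augurin, stood at 26.4, 208, 11.7 and 36.0 and was high in E(+)T(-) only, so that its difference of -2.93 (-3.65 to -2.37) had the opposite sign to that of 1.54 in sedentary hearts.

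**Figure D2:**
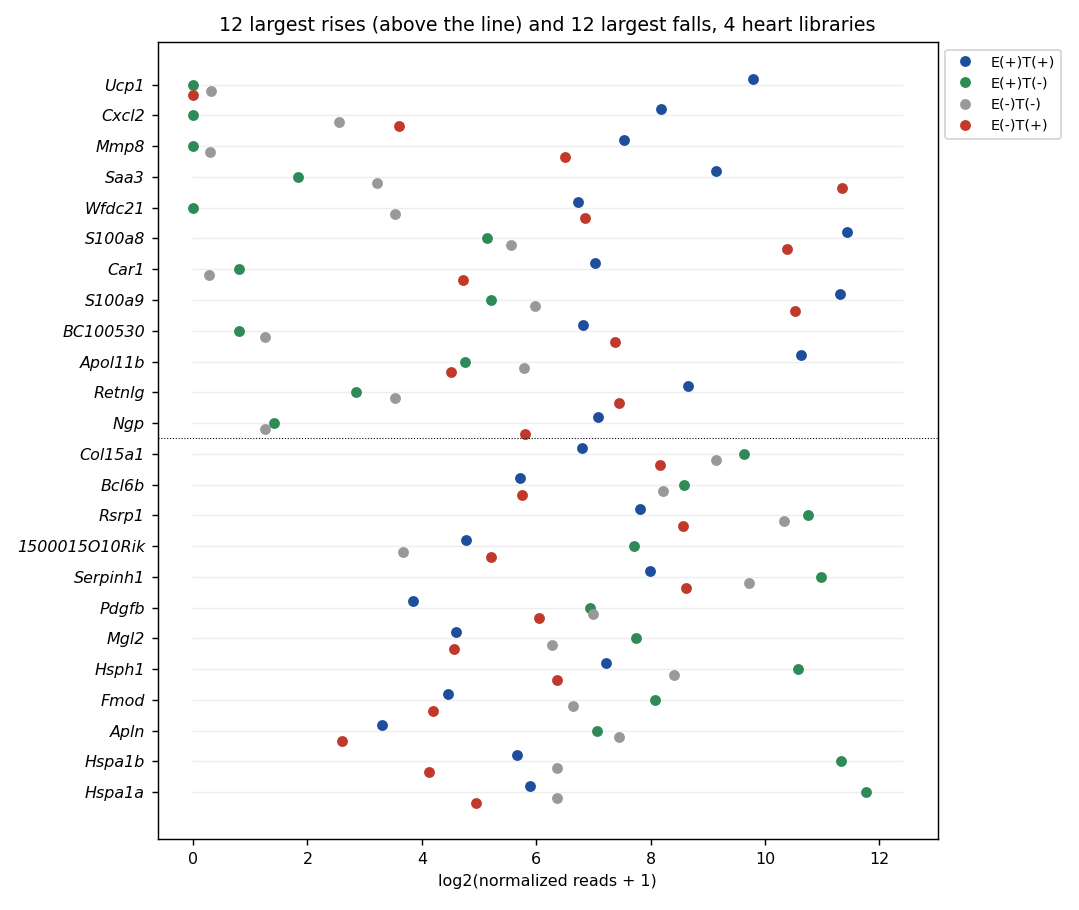
Level of the 12 genes with the largest rise (above the dotted line) and the 12 with the largest fall among genes that reached 100 normalized reads, as log2(normalized reads + 1) on the horizontal axis, 1 point for each heart library. For Ucp1 only E(+)T(+) is away from 0, for Hspa1a and Hspa1b only E(+)T(-) is far to the right, and for Apln the 2 tumor libraries lie together on the left.

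Most acute phase genes and targets of the interleukin-6 family were higher. Of the 34 in the list 27 passed the minimum, 19 were at least 2-fold higher and 0 lower, and their median difference was 2.15 against -0.02 for all genes. In sedentary hearts the corresponding median was 2.62, over 28 genes. Liver makes many acute phase proteins, and hepatocyte markers moved with this list. Of 12 such markers 8 passed the minimum, all 8 were at least 2-fold higher with a median of 2.18, and the list summed to 1283, 360, 432 and 1613 normalized reads. Their part in the acute phase difference was not tested. Saa2, a serum amyloid, stood at 46.6, 0, 0.170 and 21.2, at least 4.12 higher, and Fgb, the fibrinogen beta chain, which is in both of these lists, at 82.7, 1.65, 0.203 and 58.4, a difference of 4.98 (3.62 to 8.59) on 2 reads in E(+)T(-). Stat3, the transcription factor that carries the interleukin-6 signal, stood at 4281, 2810, 2529 and 4972, a difference of 0.61 (0.54 to 0.68) that became -0.11 when scaled to total reads.

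Metallothioneins, small proteins that bind zinc and copper, were higher in both tumor hearts. Mt2 stood at 33224, 921, 363 and 30027 normalized reads, a difference of 5.17 (5.08 to 5.26), and Mt1 at 52973, 5303, 3850 and 37928, a difference of 3.32 (3.28 to 3.36). Over the whole list of metallothionein and iron genes, with Mt1 and Mt2 among them, 4 of 18 were at least 2-fold higher, 0 lower, and the median was 0.25 (-0.47 scaled to total reads). Hmox1, which degrades heme, stood at 93.0, 36.9, 18.6 and 277, a difference of 1.31 (0.77 to 1.90; 0.60 scaled to total reads) against 3.82 in sedentary hearts. Fth1, the ferritin heavy chain that stores iron, stood at 23025, 13719, 11633 and 27099, a difference of 0.75 (0.72 to 0.78). Scaled to total reads, the difference of Fth1 was 0.03. On the deposited scale both genes were higher in each tumor heart than in each heart without a tumor.

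Glucocorticoid targets, among which both metallothioneins are counted again, had 10 of 22 members at least 2-fold higher and 0 lower, with a median of 0.95 against 1.45 in sedentary hearts. Lcn2, the iron-siderophore carrier lipocalin 2, stood at 401, 15.2, 16.3 and 992, a difference of 4.63 (4.01 to 5.50). It too was high in both tumor hearts.

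The 250 bases before the start of Mt2 and of Cxcl2 are printed because these genes were among the largest differences and their promoters are known to hold metal response and kappa-B elements. Sequences are from RefSeq (GRCm38.p6) and run 5′ to 3′ on the gene's strand, with Mt2 at chr8:94172368-94172617 and Cxcl2 at chr5:90903649-90903898, both on the plus strand. Capitals mark matches, on either strand, to TGCNCNC, a loose pattern for the core of the metal response element, in Mt2, and to GGNNTTTCC, a kappa-B pattern, in Cxcl2.
Mt2: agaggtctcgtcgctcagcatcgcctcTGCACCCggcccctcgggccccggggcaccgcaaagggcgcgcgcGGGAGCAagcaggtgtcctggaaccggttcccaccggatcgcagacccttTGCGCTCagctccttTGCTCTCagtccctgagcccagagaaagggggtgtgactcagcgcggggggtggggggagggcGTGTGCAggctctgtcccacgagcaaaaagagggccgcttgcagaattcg
Cxcl2: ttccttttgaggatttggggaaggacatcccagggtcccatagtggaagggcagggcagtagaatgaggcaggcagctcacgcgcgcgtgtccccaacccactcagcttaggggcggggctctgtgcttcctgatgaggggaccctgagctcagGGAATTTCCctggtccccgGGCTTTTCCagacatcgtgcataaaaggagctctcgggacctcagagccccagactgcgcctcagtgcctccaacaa
Mt2 holds 5 matches, a number that 0.344% of 32851 promoter windows of the same length reach, while 44.4% hold at least 1. Cxcl2 holds 2, which 0.198% reach, while 4.93% hold at least 1. By gene symbol, 4 of the 18 chemokine genes past the minimum that matched a promoter (22.2%) and 5 of 21 acute phase genes (23.8%) held the kappa-B pattern, against 5.62% of 27025 symbols. The 4 chemokine genes were Ackr4, Ccl9, Cxcl1 and Cxcl2, with a median difference of 2.38 against 0.88 for the 14 without a match, and the 5 acute phase genes were Cp, Saa3, Serpina3g, Serpina3n and Steap4, at 2.51 against 1.89 for the 16 without. The loose metal response pattern was found in 7 of 13 metallothionein and iron genes (53.8%) against 47.2% of symbols. The median difference was 0.20 for these 7 and 0.25 for the 6 without a match. A match is a description of letters and not of a bound site.

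Neutrophil granule and S100 genes had the highest median of the 32 gene lists. Of the 24, 13 passed the minimum, 11 were at least 2-fold higher and 0 lower, with a median of 4.69 against 3.92 in sedentary hearts. The 13 neutrophil markers of the cell type list summed to 6208, 104, 156 and 3286 normalized reads. In a bulk sample more cells of a type and more RNA per cell cannot be told apart. Anxa1, the annexin with the most reads of this list in E(+)T(-), stood at 164, 162, 159 and 404, a difference of 0.02 (-0.30 to 0.34) that was -0.70 when scaled to total reads.

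Chemokines and their receptors were more often higher than lower. Of 25 past the minimum 13 were at least 2-fold higher and 2 lower, with a median of 1.02 against 1.12 in sedentary hearts. Cxcl13, which attracts B cells, stood at 129, 5.25, 25.5 and 376, a difference of 4.38 (3.41 to 6.05), and Cxcl5, which attracts neutrophils, at 36.9, 0.769, 8.18 and 17.7, a difference of 4.42 (2.79 to 10.71) on 1 read in E(+)T(-). Cxcl12, which retains leukocytes through Cxcr4, stood at 2411, 2306, 2627 and 1415, a difference of 0.06 (-0.02 to 0.15; -0.66 scaled to total reads).

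Macrophage genes showed no common direction in exercised hearts. Of 27 past the minimum 5 were at least 2-fold higher and 3 lower, against 8.43% and 9.0% of all kept genes. The median was 0.06 (-0.66 scaled to total reads), whereas in sedentary hearts 19 of 28 were higher and the median was 1.38. C1qa, a complement chain made by resident macrophages, stood at 1250, 1013, 713 and 1966, a difference of 0.30 against 1.46 in sedentary hearts, and -0.42 when scaled to total reads. The member farthest up was Arg1, the arginase of alternatively activated macrophages, at 35.2, 1.64, 0.229 and 393, which differed by 3.77 (2.30 to 7.38), resting on 2 reads in E(+)T(-). Its sedentary difference was 8.32. Spp1, the secreted osteopontin, stood at 50.3, 15.2, 8.29 and 154 and differed by 1.66 (0.88 to 2.61; 0.96 scaled to total reads). Fcrls, a gene of resident macrophages, was lower at 19.8, 83.6, 53.7 and 1.57, a difference of -2.02 (-2.90 to -1.34).

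Genes of MHC class II, which present antigen to helper T cells, were lower. Of 16 in the list 8 passed the minimum, 6 were at least 2-fold lower and 0 higher, and the median was -1.50 against -2.65 in sedentary hearts. H2-Aa stood at 463, 1586, 1548 and 142, H2-Eb1 at 230, 979, 875 and 80.9, H2-Ab1 at 125, 470, 419 and 61.5, and Cd74, the invariant chain, at 182, 651, 553 and 69.4. Their differences were -1.78, -2.09, -1.90 and -1.84, and all 4 intervals lay within -2.31 to -1.60. All 4 had one order of libraries, with both tumor hearts below both others and the sedentary tumor heart lowest.

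Interferon-stimulated and MHC class I genes had a median of -0.38. At least 2-fold higher were 3 of 38 and lower 6, against 8.43% and 9.0% of all kept genes. Of the 38, 28 had a negative difference and 10 a positive one. In sedentary hearts 2 of 42 were at least 2-fold higher and 21 lower, with a median of -0.96. Rsad2, the antiviral enzyme viperin, stood at 1961, 283, 371 and 260, a difference of 2.79 (2.62 to 2.97), and Gbp6, a guanylate-binding protein, at 321, 84.9, 97.6 and 141, a difference of 1.91 (1.58 to 2.27). Rsad2 and Gbp6 are among the 3 higher genes of the list, and for both the E(+)T(+) library was the highest of 4. B2m, the light chain of MHC class I, stood at 6042, 6741, 8101 and 5881, a difference of -0.16 (-0.21 to -0.11).

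Complement genes had 5 of 19 members at least 2-fold higher and 0 lower, against 8.43% and 9.0% of all kept genes. Their median was 0.38 (-0.33 scaled to total reads). In sedentary hearts 12 of 20 were at least 2-fold higher and 1 lower, with a median of 1.19. C4b stood at 592, 172, 90.8 and 795 and C4a, a near-identical copy, at 104, 26.1, 14.0 and 118. Their differences were 1.78 and 1.95, against 3.12 and 2.98 in sedentary hearts. Serping1, the C1 inhibitor, stood at 3084, 3035, 2926 and 4149, a difference of 0.02 (-0.70 scaled to total reads). Of 26 lymphocyte genes only 9 passed the minimum, 7 of them at least 2-fold higher, all at low levels. Jchain, which joins antibody chains, stood at 54.5, 0.753, 21.9 and 53.1, a difference of 4.98 (3.37 to 11.25) on 1 read in E(+)T(-). Lck, the T cell kinase, stood at 17.3, 2.62, 5.79 and 4.32, a difference of 2.34 (0.88 to 5.11) on 3 reads. Ccl5, a chemokine of T cells, stood at 18.5, 13.5, 16 and 12.3, a difference of 0.43 whose interval of -0.64 to 1.56 includes 0 (-0.25 scaled to total reads).

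The contractile genes of heart muscle differed little. Of 26 sarcomere genes 1 was at least 2-fold higher and 0 lower, with a median of 0.23 (-0.49 scaled to total reads). The 1 was Tcap, the titin cap of the Z disc, at 10469, 2498, 4675 and 13882, a difference of 2.07 (2.01 to 2.13), with both tumor hearts above both others. Des, desmin, stood at 6960, 3590, 3439 and 7558 and differed by 0.96 (0.90 to 1.01), or 0.24 scaled to total reads. Myh6, the adult cardiac myosin heavy chain, stood at 47346, 29985, 33618 and 38967, a difference of 0.66 (0.64 to 0.68) that was -0.06 when scaled to total reads. Myl3, a ventricular light chain, stood at 102480, 106906, 102979 and 99816, a difference of -0.06 (-0.07 to -0.05).

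Fetal and stress genes of cardiomyocytes, which rise in a loaded or failing heart, were not higher in the exercised tumor heart. Of 21 past the minimum 0 were at least 2-fold higher and 2 lower, with a median of -0.30 against 0.90 in sedentary hearts, where 10 were higher. Ankrd1, a stretch-responsive ankyrin repeat protein, stood at 41160, 67705, 86534 and 185620, a difference of -0.72 (-0.74 to -0.70) against 1.10 in sedentary hearts. The 2 lower genes were Acta1, skeletal alpha actin, at 4711, 16247, 14562 and 5220, and Gdf15, a stress hormone, at 18.8, 107, 117 and 53.7, with differences of -1.79 (-1.83 to -1.74) and -2.45 (-3.35 to -1.78). Atf3, a stress-induced transcription factor, stood at 568, 293, 59.9 and 348, a difference of 0.95 (0.75 to 1.16), or 0.24 scaled to total reads.

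Among 40 calcium handling and ion channel genes 2 were at least 2-fold higher and 5 lower, against 8.43% and 9.0% of all kept genes. The median was 0.06 (-0.64 scaled to total reads). Sln, sarcolipin, the small inhibitor of the calcium pump that is made mainly in atria, stood at 4897, 1268, 498 and 599, a difference of 1.95 (1.86 to 2.04). Pln, phospholamban, which has the same role in ventricles, stood at 49769, 44237, 43901 and 41938, a difference of 0.17 that was -0.55 when scaled to total reads. Of the other atrial markers, Myl7 stood at 2273, 1715, 746 and 687, and Myl4 at 2873, 1458, 735 and 573. Both were higher in each exercised library than in each sedentary one. The difference of Myl7 was 0.41 (-0.31 scaled to total reads). Over the 10 atrial markers past the minimum the median was 0.97, and 3 were at least 2-fold higher and 0 lower. The summed counts of the list were 39574, 22941, 18505 and 24601, so by sum E(-)T(+) lay above E(+)T(-). The part of atrial tissue in the difference of Sln was not tested. Lower genes of the calcium and channel list were Casq1, the skeletal calsequestrin, at 26.4, 113, 40.2 and 24.5, and Kcna5, a potassium channel, at 57, 177, 113 and 33.3, with differences of -2.05 (-2.79 to -1.46) and -1.62 (-2.10 to -1.19).

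Genes of muscle wasting showed no common direction. Of 22 muscle atrophy ligases and FoxO genes 1 was at least 2-fold higher and 1 lower, against 8.43% and 9.0% of all kept genes. Their median was 0.03 (-0.68 scaled to total reads). In sedentary hearts 8 of 21 were at least 2-fold higher and 3 lower, with a median of -0.24. Fbxo31, an F-box protein of the ligase family, stood at 697, 338, 274 and 771, a difference of 1.04 (0.86 to 1.23; 0.32 scaled to total reads), and Trim32, a ligase that acts on desmin, at 57, 207, 149 and 68.6, a difference of -1.84 (-2.32 to -1.42). Asb2, a ligase subunit of striated muscle, stood at 971, 1675, 1970 and 823, a difference of -0.79 (-0.90 to -0.67). Ddit4, an inhibitor of mTORC1, stood at 3131, 1620, 815 and 3525, a difference of 0.95 (0.86 to 1.04), or 0.23 scaled to total reads. In each of these 4 genes the tumor hearts lay on one side of both hearts without a tumor.

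Autophagy and lysosome genes had 3 of 31 members at least 2-fold higher and 0 lower, against 8.43% and 9.0% of all kept genes. Their median was 0.30 (-0.42 scaled to total reads). Bnip3, a mitophagy receptor induced by low oxygen, stood at 4678, 1005, 1088 and 4058, a difference of 2.22 (2.12 to 2.32), with both tumor hearts high. Its relative Bnip3l, which also clears mitochondria from maturing red cells and is one of the erythroid markers, stood at 1827, 696, 710 and 691, a difference of 1.39 (1.27 to 1.52; 0.67 scaled to total reads) in the exercised tumor heart alone. Atg13, of the kinase complex that starts autophagy, stood at 590, 204, 218 and 263, a difference of 1.53 (1.30 to 1.76; 0.81 scaled to total reads), and the lysosomal protease Ctsd at 7341, 4460, 4649 and 8242, a difference of 0.72 that was near 0 when scaled to total reads.

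Among 37 proteasome genes 1 was at least 2-fold higher and 0 lower, with a median of 0.31 (-0.41 scaled to total reads). Psmd4, the ubiquitin receptor, stood at 3742, 1856, 2009 and 4525, a difference of 1.01 (0.93 to 1.09; 0.29 scaled to total reads), and Psmc6, an ATPase of the cap, at 1315, 687, 729 and 1372, a difference of 0.94 (0.80 to 1.07). Psmb9, a subunit of the immunoproteasome, had the other sign, at 82.2, 162, 231 and 101 and -0.97 (-1.39 to -0.58). Each of the 3 genes had the same sign in sedentary hearts. Psma7, a core subunit, stood at 4106, 2889, 2863 and 4579 and differed by 0.51 (-0.21 scaled to total reads).

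Metabolic genes were close to the median of all genes. Of 24 genes of fatty acid uptake and oxidation 0 were 2-fold higher or lower, and the median was -0.10 against -0.68 in sedentary hearts. Acadm, a mitochondrial dehydrogenase, stood at 2698, 4302, 4979 and 3129 and differed by -0.67 (-0.74 to -0.60), and Cpt2, which moves fatty acids into the matrix, stood at 513, 813, 746 and 265 and differed by -0.66 (-0.83 to -0.50). Both tumor hearts lay below both others for these 2 genes. Fabp3, the cardiac fatty acid binding protein, stood at 40007, 38832, 37354 and 19148, so the sedentary tumor heart alone was low, and its difference of 0.04 in exercised hearts was -0.68 when scaled to total reads. Cd36, the fatty acid translocase, stood at 6751, 4172, 5126 and 4740 and differed by 0.69 (-0.03 scaled to total reads).

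Targets of PPAR and fasting had 2 of 24 members at least 2-fold higher and 1 lower, against 8.43% and 9.0% of all kept genes. Their median was 0.13 (-0.59 scaled to total reads). The higher ones were Ucp2, an uncoupling protein of many tissues, at 1142, 270, 327 and 473, a difference of 2.08 (1.89 to 2.27), and Bdh1, a ketone body dehydrogenase, at 2297, 1003, 737 and 1738, a difference of 1.19 (1.09 to 1.30; 0.48 scaled to total reads). The lower one was Pparg, the receptor that drives fat cell formation, at 51.5, 110, 96.2 and 74.9, a difference of -1.09 (-1.62 to -0.61). Bdh1 was high in both tumor hearts and Ucp2 mainly in the exercised one. Lpl, the lipase that takes fatty acids from lipoproteins, stood at 43237, 31085, 32949 and 58615, a difference of 0.48 (-0.24 scaled to total reads).

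Glucose uptake and glycolysis genes had 4 of 33 members at least 2-fold higher and 0 lower, against 8.43% and 9.0% of all kept genes. Their median was 0.16 (-0.56 scaled to total reads). Pdk3, which holds back pyruvate oxidation, stood at 74.2, 24.3, 15.1 and 65.4, Slc2a3, the glucose carrier of leukocytes and neurons, at 31.6, 10.7, 17.3 and 37.2, and Pfkfb3, an activator of glycolysis, at 186, 80.4, 65.5 and 186. Their differences were 1.57, 1.48 and 1.20, or 0.87, 0.78 and 0.48 when scaled to total reads, and each was high in both tumor hearts. Aldoa, the muscle aldolase, stood at 18216, 14521, 14085 and 17928, a difference of 0.33 (-0.39 scaled to total reads). Of 18 fatty acid synthesis genes 0 were 2-fold higher and 1 lower, with a median of -0.24 against -1.08 in sedentary hearts. The 1 was Fasn, the fatty acid synthase, at 160, 379, 1869 and 161, a difference of -1.24 (-1.53 to -0.97) against -3.53 in sedentary hearts, where the heart without tumor or running stood far above the rest. Srebf1, the regulator of lipid synthesis, differed by -0.95 (-1.49 to -0.46), and the triglyceride-forming enzymes Dgat1 and Dgat2 by 0.65 (-0.06 scaled to total reads) and -0.03.

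Of 89 nuclear-encoded genes of the respiratory chain 0 were 2-fold higher and 1 lower, with a median of 0.25 (-0.47 scaled to total reads). The lower one, Sdhd, a membrane anchor of complex II, stood at 148, 443, 354 and 237, a difference of -1.58 (-1.87 to -1.31). Cox7a2, a complex IV subunit found in most tissues, stood at 25162, 13853, 13335 and 18153, a difference of 0.86 (0.83 to 0.89). Scaled to total reads, that difference was 0.14. Cox7a1, the heart and muscle form of this subunit, stood at 14511, 13920, 12659 and 8404. Its difference of 0.06 was -0.66 when scaled to total reads. Ndufab1, the acyl carrier protein of complex I, differed by -0.73 (-0.96 to -0.52), and Cox6a2, the heart and muscle form of another complex IV subunit, by 0.25 (-0.46 scaled to total reads).

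Cytosolic ribosomal proteins shared a sign on the deposited scale. Of 83 past the minimum 81 had a positive difference and 2 a negative one, but only 1 reached 2-fold, and the median was 0.44 (-0.28 scaled to total reads) against 0.93 in sedentary hearts, where 26 reached 2-fold. The 1 was Rpl39l, a variant ribosomal protein, at 41.6, 6.16, 15.1 and 121, a difference of 2.57 (1.53 to 4.12). Rps13 stood at 1595, 849, 770 and 1615, and Rpl22l1 at 1513, 821, 812 and 1934, with differences of 0.91 (0.79 to 1.03) and 0.88 (0.76 to 1.0), and Rplp1, of the ribosomal stalk, at 25127, 16428, 15265 and 29902, with 0.61 (-0.11 scaled to total reads). Mitochondrial ribosomal proteins had a median of 0.03 (-0.69 scaled to total reads) over 77 genes, 0 higher and 3 lower, which were Mrps28, Mrpl44 and Mrpl49 at -1.19, -1.10 and -1.04. Mrpl42 stood at 2783, 2465, 2423 and 1543 and differed by 0.17 (-0.54 scaled to total reads).

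Antioxidant enzymes had 5 of 30 members at least 2-fold higher and 0 lower, against 8.43% and 9.0% of all kept genes. Their median was 0.35 (-0.37 scaled to total reads). Gclm, the regulatory subunit of glutathione synthesis, stood at 257, 65.9, 74.7 and 133, a difference of 1.95 (1.58 to 2.36), and Gpx1, a glutathione peroxidase abundant in red cells, at 7590, 2132, 1976 and 3278, a difference of 1.83 (1.76 to 1.90). For both, E(+)T(+) was the highest library and E(-)T(+) the next. Sod1, the cytosolic superoxide dismutase, stood at 8988, 6101, 6216 and 8498 and differed by 0.56 (-0.16 scaled to total reads). Among 22 clock genes 5 were at least 2-fold higher and 2 lower, against 8.43% and 9.0% of all kept genes. Their median was 0.06 (-0.66 scaled to total reads). Nr1d1, the repressor Rev-erb alpha, stood at 630, 113, 103 and 520, and Ciart, another repressor, at 52.4, 6.17, 3.69 and 79.8, while Npas2, an activator that Nr1d1 represses, stood at 3.37, 20.2, 5.81 and 2.52. Their differences were 2.47 (2.20 to 2.77), 2.90 (1.90 to 4.44) and -2.28 (-4.98 to -0.87), the last a ratio of 3 reads to 22. Usp2, a clock-controlled protease, stood at 734, 832, 815 and 607 and differed by -0.18. The hour of dissection of each heart is not given in the sources used here.

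Heat shock chaperones, which refold proteins after heat or exertion, were lower, with E(+)T(-) as the library that departed. Of 26 genes 12 were at least 2-fold lower and 0 higher, the median was -0.96 against -0.21 in sedentary hearts, and for all 12 the E(+)T(-) library was the highest of 4, whereas E(+)T(+) was the lowest of 4 for 3. Hsph1, the Hsp110 partner of Hsp70, stood at 149, 1533, 341 and 81.8, a difference of -3.36 (-3.63 to -3.11), and Hsp90ab1, a constitutive Hsp90, at 12262, 24288, 15467 and 15869, a difference of -0.99 (-1.02 to -0.95). Dnajb1, the Hsp40 co-chaperone, stood at 327, 1537, 322 and 156, and Hspa8, the constitutive Hsp70, at 1671, 3945, 2218 and 2295. The exercised tumor heart thus lay within or near the range of the sedentary hearts for these genes. The time between the last run and dissection is not given for single hearts, and its part in the difference was not tested.

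The 250 bases before the start of Hspa1a, at chr17:34972157-34972406 on the minus strand (RefSeq, GRCm38.p6), are printed because this gene had the largest fall among genes that reached 100 and its promoter is the textbook target of heat shock factor. Capitals mark the match to GAANNTTC, the core of the heat shock element, which reads the same on both strands.
Hspa1a: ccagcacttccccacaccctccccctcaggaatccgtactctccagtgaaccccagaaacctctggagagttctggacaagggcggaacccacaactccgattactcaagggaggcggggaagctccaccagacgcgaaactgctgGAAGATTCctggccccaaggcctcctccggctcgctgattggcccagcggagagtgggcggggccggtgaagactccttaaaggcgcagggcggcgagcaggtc
The core was found in 6.69% of the 32851 promoter windows. By gene symbol it was found in 8 of the 21 heat shock genes that matched a promoter (38.1%) against 7.73% of 27025 symbols. These 8, Dnaja1, Fkbp4, Hspa1a, Hspa1b, Hspb1, Hspb6, Hspd1 and Hspe1, had a median difference of -1.12, and the 13 without a match in this window had one of -0.93.

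Genes of the unfolded protein and integrated stress responses, which act on the endoplasmic reticulum and on translation, had a median of -0.61 against 0.27 in sedentary hearts. Of 29 past the minimum 11 were at least 2-fold lower and 3 higher, and for 9 of the 11 E(+)T(-) was the highest of 4 libraries. Sdf2l1, an endoplasmic reticulum chaperone cofactor, stood at 61.4, 246, 68.9 and 74.8, and Creld2, a protein induced by stress of the same organelle, at 51.5, 179, 89.4 and 41.3, with differences of -1.99 (-2.45 to -1.59) and -1.77 (-2.28 to -1.33). Hspa5, the chaperone BiP, stood at 6826, 11028, 5333 and 5724, a difference of -0.69 (-0.74 to -0.65). In the other direction Chac1, which degrades glutathione and is a target of ATF4, stood at 56.7, 16.1, 1.38 and 58.5, a difference of 1.75 (1.01 to 2.67).

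Immediate early genes, the fast transcriptional answer to stimulation, had 8 of 26 members at least 2-fold higher and 2 lower, with a median of 0.47 (-0.24 scaled to total reads). For all 8 the E(+)T(+) library was the highest of 4. The sedentary pair moved as well, with 13 of 23 at least 2-fold higher, 0 lower and a median of 1.28. The leucine zipper factor Fosb stood at 91.3, 14.3, 14.0 and 9.51, its relative Fosl1 at 26.0, 4.41, 1.33 and 16, and the small Maf protein Maff at 680, 165, 50.7 and 283, with differences of 2.59 (1.88 to 3.54), 2.32 (1.12 to 4.28) and 2.04 (1.81 to 2.29). In sedentary hearts Fosb, Fosl1 and Maff differed by -0.51, 2.86 and 2.46. Klf2, the flow-responsive factor of endothelium, stood at 1158, 2477, 2103 and 2448, a difference of -1.10 (-1.20 to -0.99). E(+)T(+) was thus the lowest library for Klf2.

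Most collagen chains were lower in the exercised tumor heart, and in the sedentary pair most had the opposite sign, a contrast between pairs that was not tested. Of 24 past the minimum 16 were at least 2-fold lower and 1 higher, with a median of -1.36, against 9 of 24 at least 2-fold higher, 0 lower and a median of 0.65 in sedentary hearts. For all 16 the E(+)T(+) library was the lowest of 4, and for 6 of them E(+)T(-) was the highest. Of the fibrillar chains, Col1a1 stood at 301, 1231, 599 and 2564, Col3a1 at 440, 2180, 1202 and 4359, and Col1a2 at 1048, 3394, 2182 and 5942. Their differences were -2.03, -2.31 and -1.69, with the sedentary tumor heart the highest and the exercised tumor heart the lowest of 4 in each. Col6a3, of the microfibrils around muscle fibers, stood at 68.0, 422, 274 and 434 and differed by -2.62 (-3.04 to -2.25).

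Of the other chains, Col15a1, of the basement membrane zone, stood at 110, 798, 562 and 286, a difference of -2.85 (-3.18 to -2.57), with both tumor hearts below both others and a sedentary difference of -0.97. Col8a2, a short chain of vessel walls, stood at 1.20, 18.3, 11.4 and 1.63, a ratio of 1 read to 20 with a difference of -3.14 (-9.42 to -1.40) against -2.24 in sedentary hearts, where it did not reach the minimum. Col4a1, the main chain of vessel and muscle basement membranes, stood at 1860, 2479, 2093 and 2609 and differed by -0.41. Col13a1, a transmembrane collagen, was the 1 higher chain, at 38.3, 12.5, 18.5 and 94.0, a difference of 1.54 (0.84 scaled to total reads).

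Other matrix genes had a median of -0.37, with 13 of 44 at least 2-fold lower and 5 higher, against 0.98 in sedentary hearts, where 21 were higher and 6 lower. Serpinh1, the collagen chaperone Hsp47, stood at 254, 2015, 841 and 390, a difference of -2.98 (-3.19 to -2.79), with E(+)T(-) the highest library. It belongs to the heat shock response as well as to collagen folding. Fmod, the collagen-binding fibromodulin, stood at 21.0, 269, 98.6 and 17.4, and Comp, a thrombospondin of tendon and cartilage, at 15.4, 71.0, 16.2 and 12.2, with differences of -3.62 (-4.44 to -3.02) and -2.13 (-3.14 to -1.37). The 5 higher genes were Lox, which cross-links collagen, Mmp3, a matrix protease, Timp1, an inhibitor of such proteases, the aggrecanase family gene Adamts1, and the thrombospondin Thbs2. All 5 were higher in sedentary tumor hearts as well, with Lox at 245, 62.3, 35.8 and 496 and Timp1 at 164, 51.4, 20.9 and 814. Scaled to total reads, Adamts1, Thbs2 and Timp1 differed by 0.89, 0.48 and 0.94 in exercised hearts. Dcn, the proteoglycan decorin of fibroblasts, stood at 29409, 22489, 20423 and 40453, a difference of 0.39 that was -0.33 when scaled to total reads. Over the 17 fibroblast markers the median was -0.71 and the summed counts were 45131, 50484, 42358 and 69145, and the part of fibroblast number in the collagen difference was not tested.

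**Figure D3:**
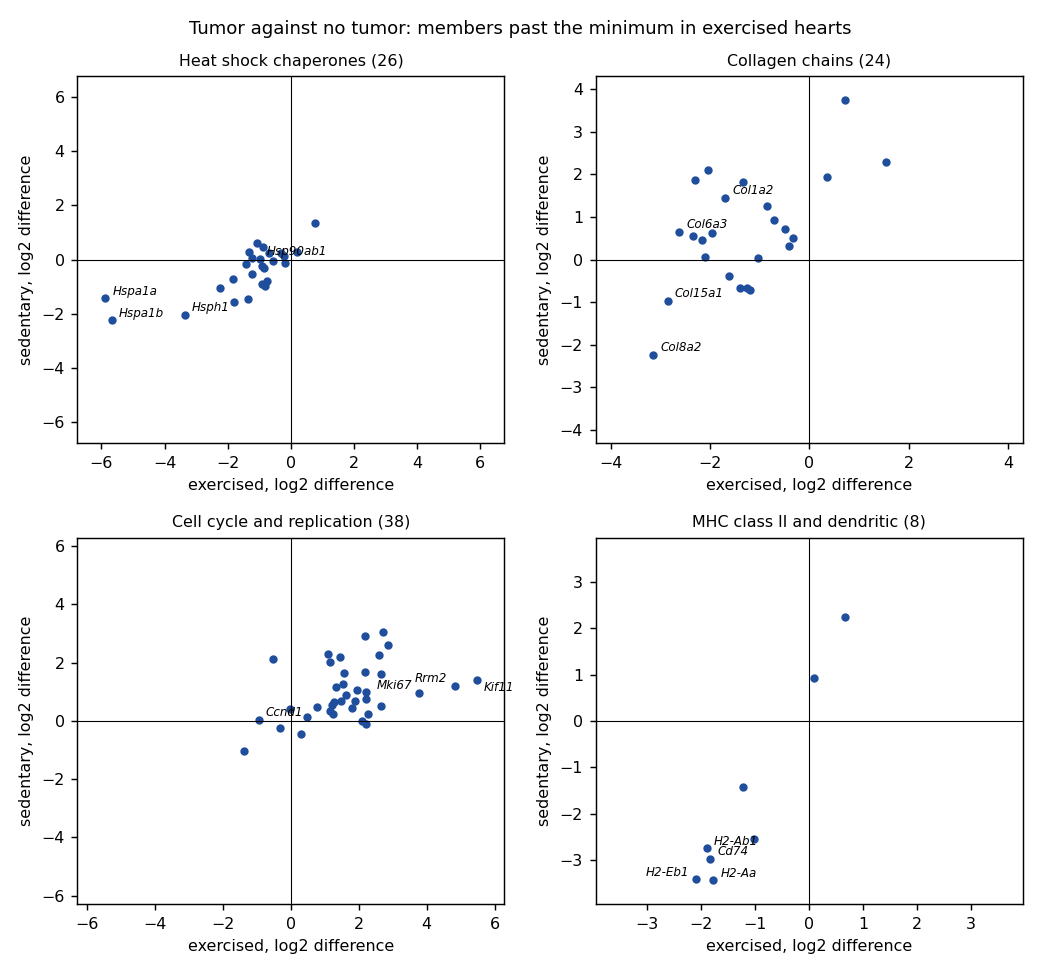
Difference between tumor and no tumor in exercised hearts (horizontal axis) and in sedentary hearts (vertical axis), both on the log2 scale, 1 point for each member past the minimum in exercised hearts of 4 gene lists, with the genes chosen for naming labelled. Of 24 collagen chains 15 were negative in exercised and positive in sedentary hearts and 6 negative in both; of 38 cell cycle genes 31 were positive in both, and of 8 MHC class II genes 6 were negative in both.

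Endothelial and angiogenic genes had 6 of 27 members at least 2-fold higher, 3 lower and a median of 0.12 (-0.60 scaled to total reads). Besides Apln, which is in this list, the largest differences were those of Ackr1, the chemokine-binding receptor of venules that red cells also carry, at 42.3, 3.48, 3.65 and 19.4, and Selp, the P-selectin by which activated endothelium and platelets bind leukocytes, at 44.8, 6.17, 3.69 and 82.5. They differed by 3.27 (2.09 to 5.51) and 2.67 (1.65 to 4.23), and both tumor hearts were high in each. Kdr, the main receptor of VEGF, stood at 967, 1707, 2631 and 709, and Sox17, a factor of arterial endothelium, at 535, 145, 130 and 274, with differences of -0.82 and 1.88. Kdr and Sox17 belong to the 15 endothelial markers, of which 4 were at least 2-fold higher and 0 lower. Over all kept genes 8.43% were higher and 9.0% lower. For all 4 of those markers E(+)T(+) was the highest of 4 libraries. The median of the 15 was -0.01 (-0.73 scaled to total reads), and their summed counts were 12224, 9481, 11724 and 10028.

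Cell cycle and DNA replication genes were higher as a group. Of 38 past the minimum 30 were at least 2-fold higher and 1 lower, with a median of 1.59 against 0.92 in sedentary hearts, and for 26 of the 30 E(+)T(+) was the highest of 4 libraries. Mki67, the Ki-67 antigen of dividing cells, stood at 396, 27.9, 41.5 and 81.9, a difference of 3.78 (3.29 to 4.40). Kif11, a spindle motor, stood at 43.4, 0, 7.06 and 20.3, at least 4.01 higher, and Rrm2, of ribonucleotide reductase, at 48.8, 0.763, 8.21 and 20.3, a difference of 4.82 (3.21 to 11.10) on 1 read in E(+)T(-). Birc5, which guides chromosome segregation, stood at 158, 23.3, 14.0 and 123. By contrast Ccnd1, the cyclin of early G1, stood at 588, 1134, 1008 and 1039 and differed by -0.95 (-1.10 to -0.80), and the 1 lower gene was Kif20a at 59.2, 157, 183 and 88.9.

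Red cell precursors divide and carry cell cycle transcripts as well, and their genes were higher in the same library. Of 40 erythroid markers other than globin 37 passed the minimum, 24 were at least 2-fold higher and 0 lower, and for all 24 E(+)T(+) was the highest of 4. The median of the 37 was 2.53. In sedentary hearts it was -0.17 over the 27 that passed the minimum there, so the medians rest on different sets of markers. Summed counts of the 40 were 40854, 10465, 10910 and 9928. Slc4a1, the band 3 anion exchanger, stood at 1391 normalized reads in E(+)T(+) and 49.6 in E(+)T(-), and Hemgn, a nuclear protein of erythroblasts, at 180 and 3.45. Klf1, the erythroid master regulator, and Ermap, a red cell adhesion protein, had 0 normalized reads in E(+)T(-) and 42.1 and 58.4 in E(+)T(+). They thus passed the minimum through E(+)T(+) alone, and such members raise the exercised median. The part of erythroid cells in the cell cycle difference was not tested.

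All 8 globin genes past the minimum had a positive difference and 7 were at least 2-fold higher. Their median was 3.0, against -0.10 over 7 genes in sedentary hearts. Hba-a1, an adult alpha globin, stood at 2349625, 348306, 366384 and 360839, and Hbb-bs, an adult beta globin, at 880521, 111061, 110217 and 116098, with differences of 2.75 and 2.99. Hba-a2, Hbb-b1, Hbb-b2 and Hbb-bt differed by 2.21, 3.0, 3.16 and 3.09, and reads may be shared among these near-identical copies. Hbq1b, a theta globin, stood at 276, 6.15, 15.2 and 10.4, a difference of 5.27 (4.39 to 6.78). The 3 libraries other than E(+)T(+) agreed closely in every globin gene named except Hbq1b, which was low in all 3.

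Of the 19 brown fat markers 16 passed the minimum, 12 with a positive and 4 with a negative difference. The 2-fold calls were 3 higher and 1 lower, against 8.43% higher and 9.0% lower over all kept genes. The median of the 16 was 0.35 (-0.36 scaled to total reads). Besides Ucp1 the higher ones were Elovl3, a fatty acid elongase, at 50.7, 0.774, 2.49 and 0, and Cidea, a lipid droplet protein, at 892, 417, 428 and 579. Their differences were 4.87, which rests on 1 read in E(+)T(-), and 1.10 (0.38 scaled to total reads). Dio2, which activates thyroid hormone in brown fat, stood at 149, 116, 30.1 and 317, and Prdm16, a determinant of brown fat, at 60.2, 109, 91.6 and 39.5, with differences of 0.36 and -0.84. The others that reached 100 include genes that heart muscle also expresses. Cox8b (0.44), Ppargc1a (0.46), Plin5 (0.70) and Kcnk3 (0.17) had positive differences that turned negative when scaled to total reads, as did Dio2, and Ebf2 (-0.17), Pank1 (-0.29) and S100b (-1.48) had negative ones.

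White fat markers had 6 of 16 members at least 2-fold higher and 2 lower in exercised hearts, with a median of 0.55 (-0.16 scaled to total reads), and 0 of 19 higher and 13 lower in sedentary hearts, with a median of -3.16. Adipoq, adiponectin, stood at 389, 70.4, 363 and 66.8, and Cfd, the protease adipsin, at 1885, 339, 1228 and 348. Their differences were 2.45 (2.11 to 2.84) and 2.47 (2.31 to 2.64), and the E(+)T(-) library lay close to the sedentary tumor heart. Plin4, a lipid droplet protein, stood at 1582, 644, 854 and 1300, and Cidec, another, at 164, 86.7, 263 and 12.1, with differences of 1.29 (0.58 scaled to total reads) and 0.91. Aqp7, a glycerol channel, was lower, at 40.6, 104, 160 and 16.5 and -1.34 (-1.94 to -0.82). Scd1, a desaturase of fat synthesis, stood at 323, 422, 3625 and 289, so E(-)T(-) alone was high. Fabp4 (0.34), Lipe (0.67), Pnpla2 (0.44), Thrsp (0.06) and Cebpa (0.25) had small positive differences that turned negative when scaled to total reads.

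Markers of lung and liver were higher in E(+)T(+) than in E(+)T(-). Of 18 lung epithelium markers 11 passed the minimum and 10 were at least 2-fold higher, with a median of 3.33. For all 10 E(+)T(-) was the lowest of 4. Members near 0 in E(+)T(-) can pass through E(+)T(+) alone, which raises this median. In sedentary hearts 8 passed, 1 was at least 2-fold higher and the median was 0.37. Scgb1a1, the club cell secretory protein, stood at 1228, 97.5, 467 and 363, and Sftpc, the surfactant protein of type II cells, at 319, 34.2, 66.7 and 76.6. The hepatocyte markers, to which the same limit applies, had a median of 2.18 over 8 genes, against 2.47 over 6 in sedentary hearts. They included Alb, albumin, at 117, 3.45, 8.29 and 48.5, and Ahsg, fetuin A, at 545, 146, 105 and 1047. Summed counts of the lung list were 3115, 1550, 2023 and 1925. The source of these transcripts in the heart libraries was not tested. Of the remaining marker lists, platelet genes had 2 of 8 members at least 2-fold higher, 0 lower and a median of 0.69 (-0.03 scaled to total reads), smooth muscle and pericyte genes 0 of 14 higher, 2 lower and a median of -0.48, skeletal muscle genes 3 of 9 higher and 2 lower, and mesothelial genes 1 of 8 higher. Schwann cell and neuron genes had 0 of 8 higher, 3 lower and a median of -0.74, with Dbh, the noradrenaline-forming enzyme of sympathetic nerves, at 11.1, 98.9, 94.7 and 5.08. Of 10 thymocyte genes 2 passed the minimum and neither differed 2-fold. The shares over all kept genes were 8.43% higher and 9.0% lower.

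**Figure D4:**
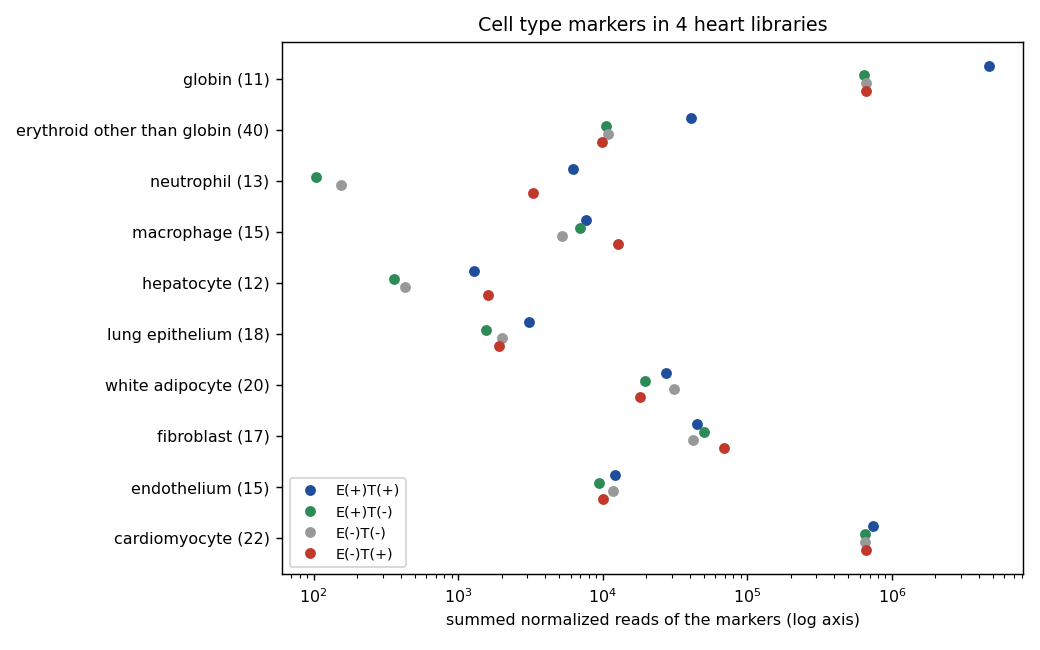
Summed normalized reads (horizontal log axis) of 10 cell type marker lists, with the number of markers listed in brackets, 1 point for each heart library. Cardiomyocyte sums lie together at 654433 to 744950, globin stands apart in E(+)T(+) at 4706688, and neutrophil sums separate the 2 tumor libraries at 6208 and 3286 from the others at 104 and 156.

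Set beside the sedentary pair, the tumor difference was partly shared. There, 12202 genes passed the minimum, 1417 (11.6%) were at least 2-fold higher in E(-)T(+) than in E(-)T(-) and 1358 (11.1%) lower. Of 11676 genes past the minimum in both pairs, 847 were 2-fold higher in exercised hearts, of which 456 (53.8%) were also 2-fold higher in sedentary hearts, where they made up 37.8% of 1206. Of 997 genes 2-fold lower in exercised hearts 413 (41.4%) were also lower in sedentary hearts, where they made up 33.4% of 1237. Opposite calls were few, with 30 genes higher in exercised and lower in sedentary hearts and 28 the other way. The 2 pairs share no library. With 1 library each, the difference between the pairs was not tested.

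**Figure D5:**
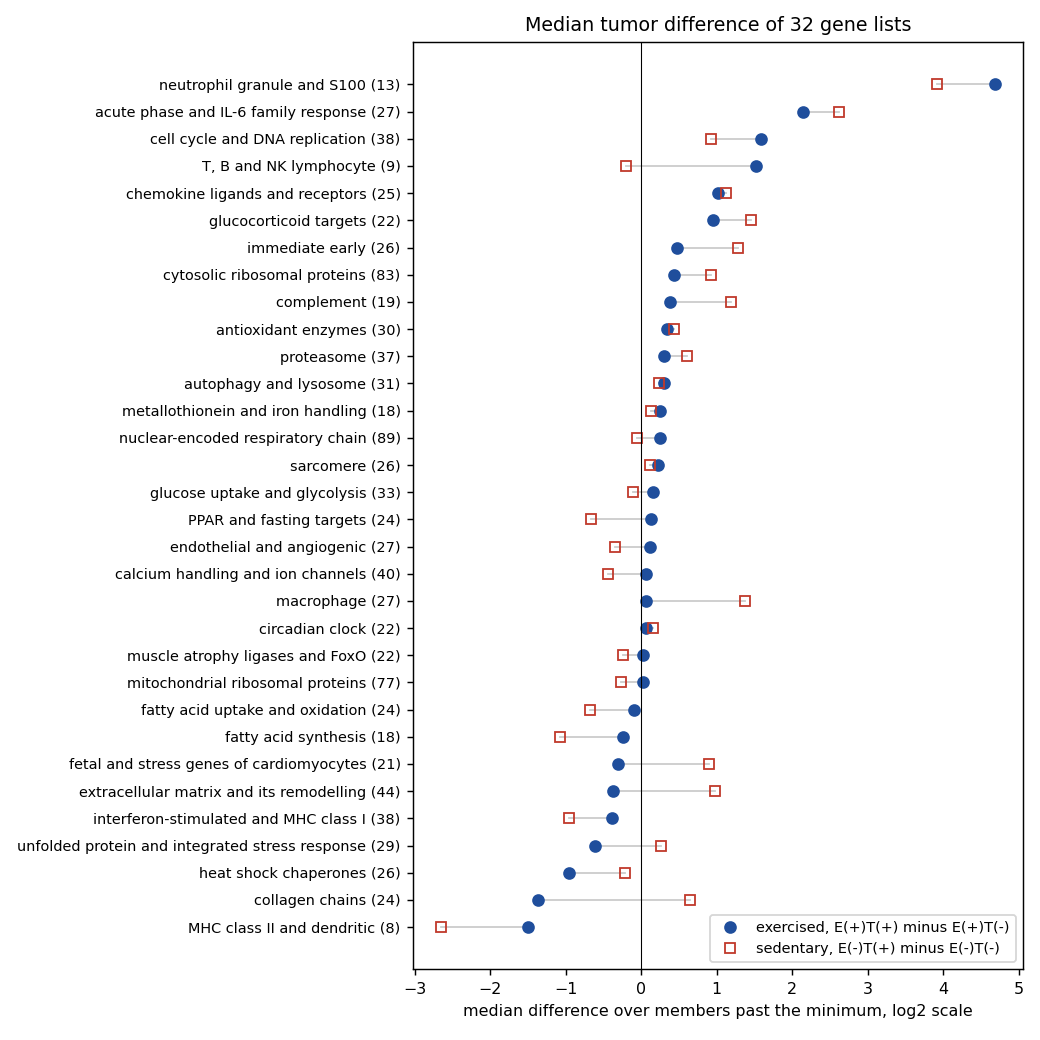
Median difference between tumor and no tumor for 32 gene lists, in exercised hearts (filled circles, ordered by value) and in sedentary hearts (open squares), on the log2 scale, with the number of members past the minimum in exercised hearts in brackets. Neutrophil genes at 4.69 and acute phase genes at 2.15 lie farthest right and MHC class II genes at -1.50 farthest left, and collagen chains lie on opposite sides of 0, at -1.36 and 0.65.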

How the data were processed

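Heart RNA of 4 groups of CDF1 mice, 1 library each, had been sequenced by the 3′ QuantSeq method. Per the labels and methods the authors mapped reads to mm10 (Bowtie2), took gene counts with bedtools and applied edgeR's quantile normalization, and the deposited values are log2 of these normalized counts plus 1. No versions are given in the sources used here, and strand was not stated. The files hold no column of other samples.

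Differences were taken between deposited log2 values for genes that reached a minimum of 16 in 1 of the 2 libraries, and a difference of 1 or more (2-fold) either way was counted. Sedentary values used the same minimum in the sedentary pair, so a list median there can rest on other members. In either pair a gene near 0 in 1 library can pass through the other alone, and such members enlarge a list median. Reads were recovered by inverting the quantile adjustment with 1 fitted dispersion of 0.149 and 4 fitted library sizes. All 93128 values were given back within 0.0006, and the relative sizes were 0.914 for E(+)T(+) and 1.106 for E(+)T(-). The recovery was tested on simulated data, and large read numbers may be off by a few reads. Intervals are 95% exact Clopper-Pearson intervals on the recovered reads, and the floor was 3 reads. PCR copies without molecular identifiers are not independent, so both cover counting error only.

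Genes named are the 12 largest differences each way among genes that reached 100, the 3 largest in each of 32 lists, the member of each list highest in E(+)T(-), and every globin and fat marker that reached 100. A few genes this rule picks are not reported here. Others were named after their values were seen, among them Elovl3, Myl4, Myl7, Dbh, Kdr, Sox17, Col1a1, Col3a1, Col4a1, Col13a1, Dnajb1, Hspa8, Birc5, Kif20a, Lox, Timp1 and the erythroid, lung and liver markers. Members, lists and comparisons were chosen with earlier results of these data known. Where a symbol occurred more than once (35 symbols), lists took its most abundant entry. Promoters came from RefSeq (GRCm38.p6) by symbol. Alternatives were other minimums, a pseudocount of 4, other scalings, thinning of the deeper library and an interval that excludes no change. Scripts ran in Python 3.11.15 with pandas 2.3.3, scipy 1.17.1, numpy 2.4.6 and, for plots, matplotlib 3.10.9.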

Additional observations from a re-analysis of the deposited data

Results flagged for a closer look

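Some lists and genes differed one way between tumor and no tumor in exercised hearts and the other way in sedentary hearts. With 1 library per group these opposite directions were not tested, and list values are medians less the median of all genes. Collagen chains stood at -1.34 in exercised and 0.67 in sedentary hearts, and within them Col1a1 differed by -2.03 and 2.10, Col3a1 by -2.31 and 1.86 and Col1a2 by -1.69 and 1.45. Fibroblast markers, which share Col1a1, Col1a2 and Col3a1 with that list, stood at -0.69 and 0.82. White adipocyte markers stood at 0.58 and -3.14, with Adipoq at 2.45 and -2.42 and Cfd at 2.47 and -1.81. T and B lymphocyte markers stood at 1.51 and -1.68, but these medians rest on the 5 and 3 of 13 markers that passed the minimum in each pair, which are not the same genes, and with a minimum of 4 the exercised value was 0.45, so no direction is read from them. Of single genes, Apol11b differed by 5.87 and -1.27, and 1500015O10Rik by -2.93 and 1.54.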

How the results depend on the processing

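The number of genes at least 2-fold higher was 1017 and of genes lower 1085. With a minimum of 4 the higher genes were 1709, with no minimum 2460 higher and 2024 lower, with 16 in both libraries 520 and 691, and with a minimum of 100 410 and 412. Scaled to total reads 472 were higher and 4050 lower, so higher genes made up 10.4% of calls against 48.4%, and scaled to reads outside globin genes 35.2%. The other 13 of 22 recounts lay within 1.5 times. Rescaling shifts nearly all genes alike, and subtracting the median of all genes takes that shift away. So the 51 list and marker values for each of scaling to total reads and to reads outside globin genes could hardly move. Without the subtraction, 17 of 32 gene list medians changed sign when scaled to total reads and 8 when scaled to reads outside globin genes. Of list and marker medians less the median of all genes, 246 of 253 recomputed values stayed close. The others were T, B and NK lymphocyte (0.80), T and B lymphocyte markers (0.45) and unfolded protein genes (-0.34) at a minimum of 4, and erythroid (1.68), brown adipocyte (0.15), skeletal muscle (-0.11) and macrophage markers (0.13) at a minimum of 100, and in these cases fewer or more members were counted. For 203 genes chosen for naming 4 alternatives were run, under which 240 of 812 recomputed differences moved beyond their counting interval and by 0.1 or more. Of the 87 that were at least 2-fold higher, 17 fell under 2-fold when scaled to total reads (0.29 to 0.96) and 3 when scaled to reads outside globin genes. All 48 at least 2-fold lower stayed so on both scales. This was no check of them, because both scales shift differences downward, with all-gene medians of -0.74 and -0.19. With thinned reads 2 of the 48, Mrpl49 and Pparg, fell short (-0.92 and -0.99). Scaling to total reads put 19 more past 2-fold lower. None of these 135 genes changed sign under the 4 alternatives. No library could be left out and no paired analysis was possible because each group has 1 library.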

Other observations

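Histone genes, a group chosen after its values were seen, were higher in E(+)T(+) as well. Of 68 in the files 41 passed the minimum, 29 were at least 2-fold higher than in E(+)T(-) and 0 lower, with a median difference of 2.92. In sedentary hearts 27 passed the minimum, 15 were at least 2-fold higher with a tumor, and the median was 1.16. Most replication histone messages lack the poly(A) tail on which 3′ sequencing rests, and how their reads arose was not tested.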
